A study of Drosophila melanogaster with 84 samples.

Results

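Single clock neurons of adult *Drosophila melanogaster* brains were compared between constant darkness and a light-dark cycle at 6 matched times of day. All 48 libraries from flies in constant darkness (DD) were set against all 36 libraries from flies in the light-dark cycle (LD), and together they make up the 84 libraries of the series. DD flies had been in darkness for 3 days, LD flies stayed in a cycle with equal hours of light and dark, and both were reared in that cycle. All flies carried *Clk856-GAL4* driving EGFP, and males and females were used in equal numbers. This driver labels most clock neurons and also some neurons that are not part of the clock network. Brains were dissected in saline with blockers of sodium channels and glutamate receptors and digested with papain. EGFP-positive cells were then sorted one to a well and sequenced with CEL-Seq2, a method that tags each captured RNA molecule with a unique molecular identifier (UMI). The comparison concerns the main effect of light, with time of day held fixed. Rhythms are not described.

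Clock neurons keep time through a loop in which the proteins CLOCK and CYCLE activate *period* and *timeless*, whose products later return to the nucleus and repress their own transcription. Light resets the loop through cryptochrome and the visual system, and in constant darkness the loop runs freely. Clock neurons also differ in how much they fire by day and by night, and they signal to the rest of the brain mainly through peptides and fast transmitters. Genes of neuronal activity, stress, nutrient signalling, energy metabolism and peptide release were therefore described as groups beside the clock genes.

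A well was kept as a cell when it had 1000 to 6000 genes, 6000 to 75000 UMIs and a Shannon entropy of its gene counts of no less than 5.5. This left 2311 of 4607 wells in DD and 2284 of 3453 in LD. UMIs of kept wells were summed over each batch, which is one time point of one date number in the labels. There were 14 batches in DD and 14 in LD, with 2 or 3 at each time. DD batches held 6 to 247 kept wells (median 164.5) and 221107 to 4784444 UMIs, and LD batches held 50 to 315 kept wells (median 135.5) and 557855 to 7940074 UMIs. The DD batches had 10 date numbers and the LD batches 6, and no date number occurred in both light conditions. Light and date therefore cannot be told apart, and each difference below is one between a set of 14 DD batches and a set of 14 LD batches. The labels do not say that batches came from separate flies, so the p-values measure the spread between these batches. Except in the fit with the date number as a block, batches that share a date number were treated as separate. Their consensus correlation within a date number was 0.36, so the other p-values can overstate the evidence.

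Several properties of the batches moved with the light condition. The wells kept made up 3.13 to 78.6% of the wells of a DD batch (median 50.7%) and 52.1 to 77.1% of an LD batch (median 65.8%; exact permutation within time points, two-sided, adjusted p = 0.0088 over 19 measures). Rows of ribosomal RNA, nuclear with its pseudogenes and mitochondrial, took 3.81 to 8.81% of UMIs in DD (median 6.77%) and 7.44 to 23.1% in LD (median 15.8%; adjusted p = 0.00013, same test). This share was added to the measures after the data had been seen, so its p-value is not that of a planned test. All 14 DD batches lay below the LD median of this share, and only LD batch 1 at 14 h and LD batch 1 at 18 h reached down into the DD range. The opposite held for the mitochondrial genome, which took 3.17 to 11.7% of UMIs in DD (median 10.1%) and 3.27 to 8.50% in LD (median 6.26%; adjusted p = 0.0088, same test). Its row *mt:srRNA* was counted in both shares. Transcripts of ribosomal protein genes were also a larger share in DD, at 2.25 to 4.76% (median 2.92%) against 1.34 to 2.69% in LD (median 2.32%; adjusted p = 0.0047, same test). EGFP reached 7.29 to 55.5 UMIs per 10000 in DD (median 32.2) and 3.21 to 35.1 in LD (median 14.6; adjusted p = 0.0061, same test). UMIs and genes per kept well did not pass this test (adjusted p = 0.36 and 0.68, same test).

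Spike-in RNA divided the DD batches. It made up 1.81 to 6.66% of UMIs in 6 of them and under 0.1% in the other 8, whereas 12 LD batches had at least 1% and 1 LD batch had under 0.1%. For a number of groups and genes, the values with each kind of DD batch alone are given below. No DD batch at 2 h had spike-ins, so the fits with spike-ins leave out 2 h in both DD and LD. The fits without spike-ins cover all 6 times and all LD batches, so the 2 kinds of fit differ in times too. How far these properties contribute to the differences of single genes was not tested.

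**Figure D1:**
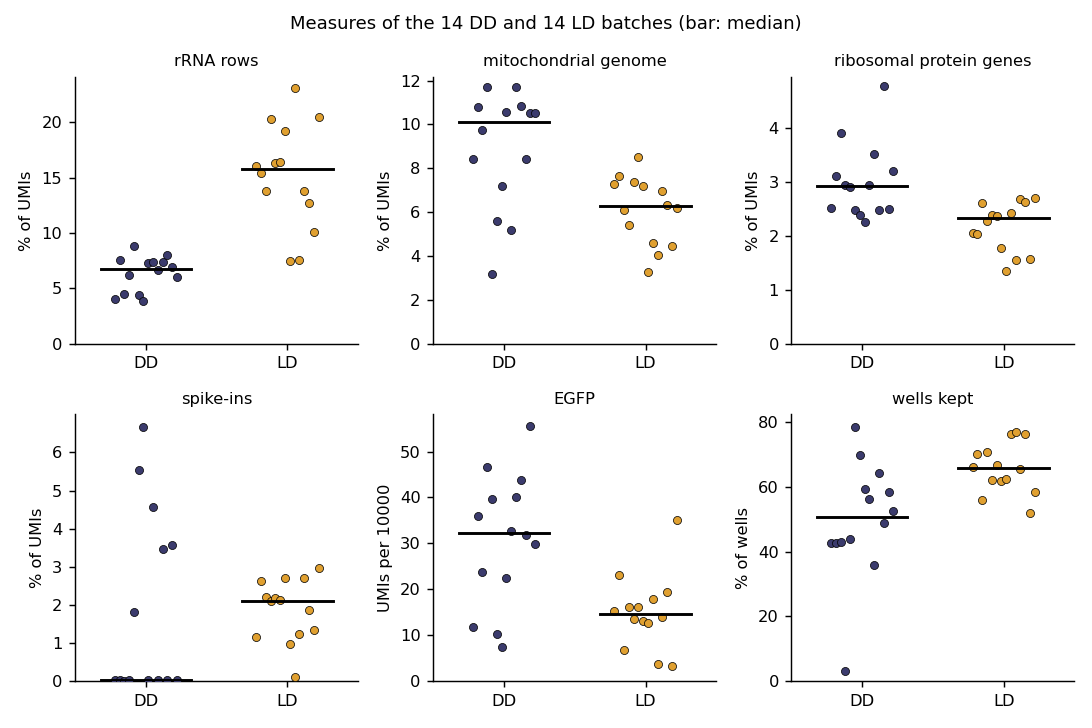
The plots give properties of each batch in DD (left) and LD (right). Each point is one batch and the bar is the median of 14. The vertical axes give the share of UMIs in % (rRNA rows, mitochondrial genome, ribosomal protein genes, spike-ins), EGFP in UMIs per 10000, and the share of wells kept in %. The rRNA share reached 8.81% at most in DD and had a median of 15.8% in LD, and the spike-in share split the DD batches into 8 near 0 and 6 at 1.81% or more.

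Neuronal markers led in both conditions, and single LD batches also held RNA of other cell types. The 9 neuronal markers (*elav*, *nSyb*, *Syt1* and others) summed to 124 to 171 UMIs per 10000 in DD and 78.7 to 148 in LD, with medians of 143 and 124 (adjusted p = 0.0031, same exact test). The marker sums here are shares of all UMIs, rRNA rows included. On the normalised scale used for single genes below, the neuronal sums were 107 to 167 in DD and 98.1 to 171 in LD. Their medians were 131 and 125.5, and none of the 9 genes was called. The 6 clock neuron markers, *tim*, *per*, *Clk*, *vri*, *Pdp1* and *cry*, summed to 26.3 to 108 in DD (median 57.5) and 37.0 to 140 in LD (median 78.3; adjusted p = 0.039, same exact test). *Pdp1* made up most of this sum, with medians of 43.0 in DD and 60.1 in LD. The medians of *tim* were 6.85 and 7.20, and those of *Clk* 1.17 and 1.25. The 11 markers of glia summed to 0.447 to 3.94 in DD (median 0.808) and 0.300 to 11.9 in LD (median 0.951), and *repo*, the defining factor of glia, had no UMI in 5 DD batches and at least 1 in every LD batch. The 8 markers of fat body summed to 0.0405 to 0.336 in DD (median 0.177) and 0.0630 to 10.8 in LD (median 0.196), and the 12 of photoreceptors to 0.0947 to 1.99 in DD (median 0.211) and 0.0707 to 3.71 in LD (median 0.246). Haemocyte markers reached 3.25 in DD and 1.42 in LD, and muscle markers 4.05 in DD and 4.55 in LD. Single genes weighed heavily in these sums. *Tm1* had medians of 1.53 in DD and 1.55 in LD, against 1.72 and 1.86 for all muscle markers. *Pxn* had medians of 0.625 and 0.469, against 0.946 and 0.873 for all haemocyte markers. Among the glial markers *Gs2* reached 9.71 in LD and *repo* 0.104. High values came from LD batch 2 at 6 h (glia 10.5, fat body 7.59), LD batch 1 at 14 h (glia 11.9) and LD batch 3 at 22 h (fat body 10.8, photoreceptors 3.71), the 3 batches with over 5 of glial or fat body markers. None of the 5 lists of other cell types passed the test (adjusted p = 0.26 to 0.92, same exact test). Wells rich in *Pdf*, which marks the ventral lateral neurons, made up 0 to 11.7% of a DD batch (median 7.23%) and 4 to 18.4% of an LD batch (median 9.36%; adjusted p = 0.26, same exact test). Wells with *CCHa1* were fewer in DD, with a median of 3.65% against 5.07% in LD (adjusted p = 0.039, same exact test). A gene summed over a batch can be lower because fewer cells expressed it or because each cell held less of it. The sums do not separate these, and single wells were counted for a few genes only.

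Of 9383 genes tested, 286 rose in DD (3.05%) and 430 fell (4.58%), so that 7.63% were called at an adjusted p under 0.05 (quasi-likelihood test of edgeR, all 28 batches). A difference of 2-fold or more was seen in 72 of the higher genes (0.767% of those tested) and 184 of the lower ones (1.96%). The genes that fell included heat shock genes, the activity-regulated genes *Hr38* and *sr*, part of the clock loop, insulin and fasting genes, ion channels, long genes and ribosomal RNA. Those that rose included ribosomal protein genes, subunits of the proton pump of vesicles, and the peptide genes *Ms* and *natalisin*. In 7 genes (0.0746%) the batches did not overlap at all, and in each of them every DD batch lay below every LD batch. These were 5 ribosomal RNA rows, *Rab3-GEF* and *Ubr3*. In the edgeR test of the interaction, no gene had a difference that depended on time of day at an adjusted p under 0.05. In the same test, 1495 of the 9383 genes had an unadjusted p under 0.05. With few batches at each time this test can miss such a dependence, so equal differences at all times are not shown.

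The counts depended on the batches and on the scaling. With the date number as a block (limma voom), 75 genes rose and 268 fell. Scaled by library size, 1147 rose and 213 fell, since this moved the median of all genes by 0.23 on the log2 scale, to 0.26. Calls for higher genes were then 84.3% of all calls, against 39.9% with the scaling used here (TMM), and no called gene changed direction. The 6 DD batches with spike-ins alone, in a fit that lacks 2 h in both conditions, gave 1 higher and 7 lower genes. The 8 without, in a fit over all 6 times, gave 191 and 391. Median differences of the 286 higher genes were 0.69 with spike-ins and 0.86 without, and of the 430 lower genes −0.74 and −0.96. The genes called with spike-ins alone were *Scp2*, higher in DD, and *mt:srRNA*, *Rab3-GEF*, *Myo81F*, *CG6912*, *His1:CG33861*, 28SrRNA-Psi:CR41609 and 18SrRNA-Psi:CR41602, lower in DD. Of these, *Scp2*, *Myo81F* and *CG6912* are named after their values were seen. Without the 3 LD batches rich in glial or fat body markers, a setting added after the data were seen, 72 genes rose and 263 fell, and of the genes called above 63 were still called higher and 252 lower.

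**Figure D2:**
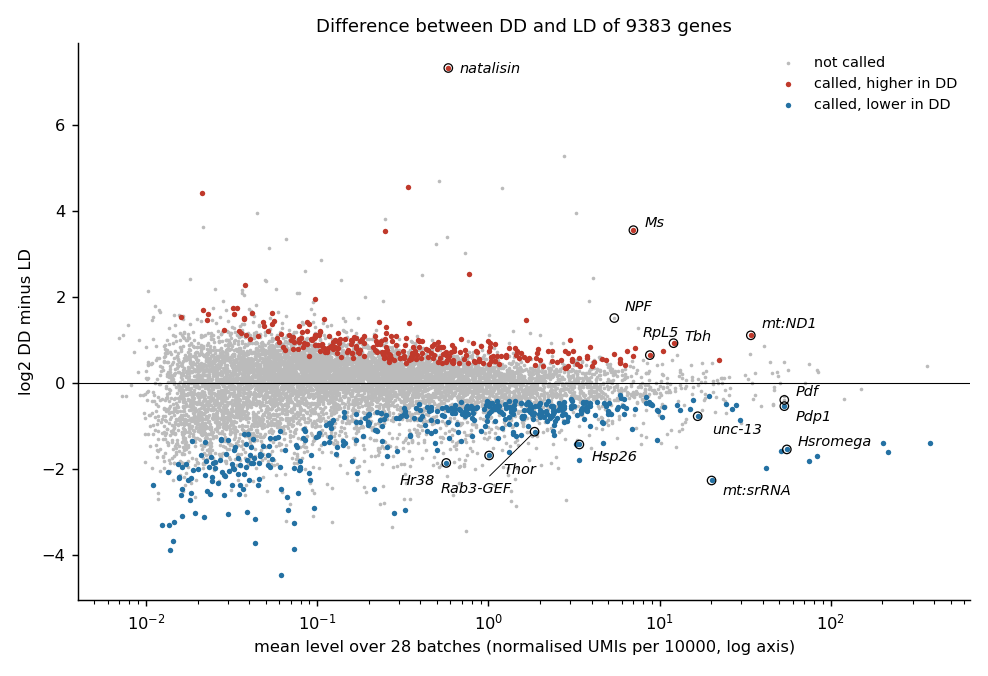
Difference between DD and LD (log2 DD minus LD, vertical axis) against the mean level over 28 batches (normalised UMIs per 10000, log axis) for 9383 genes. Each point is one gene, red where called higher in DD (286), blue where called lower in DD (430) and grey otherwise. *natalisin* stood highest among the labelled genes at 7.34, and *mt:srRNA* lowest at −2.27.

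Many heat shock genes were lower in DD. These genes are kept low in unstressed cells and are switched on by heat, damaged protein and other stress, and their products hold unfolding proteins in solution or refold them. Of 24 tested members of the list, 10 fell (41.7%, against 4.58% of all genes) and 1 rose, with a median of −0.59 against 0.03 for all genes. With the date block 5 fell, and 7 without the 3 LD batches rich in glial or fat body markers. *Hsromega*, which is not on that list, makes a long noncoding RNA that gathers RNA-binding proteins into nuclear speckles during heat stress. The gene lies on chromosome 3R at 21296127 to 21317836 (dm6, plus strand). Its level was 15.8 to 73.8 normalised UMIs per 10000 in DD (median 25.3) and 31.6 to 107 in LD (median 85.4). It was 2.91-fold lower in DD (log2 −1.54 ± 0.19 SE, adjusted p = 3.0e-05). Every DD batch lay below the LD median, while batch 3 at 6 h, at 73.8, and batch 1 at 14 h, at 48.6, stood above the other DD batches.

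Small heat shock proteins, which bind unfolding proteins without ATP, followed the same direction. *Hsp26* was at 0.429 to 5.86 in DD (median 1.56) and 2.70 to 8.0 in LD (median 4.93), a difference of −1.43 ± 0.27 (adjusted p = 0.0024). The highest DD value came from batch 1 at 14 h. *Hsp27* was at 0.769 to 2.55 in DD (median 1.53) and 1.69 to 4.57 in LD (median 3.39; −1.21, adjusted p = 4.2e-05). *Hsp67Bc* fell by 0.78 and *Hsp23* by 0.64 on the log2 scale (adjusted p = 0.022 and 0.030), and *Hsp67Bb*, a gene of the same cluster that is not on the list, fell by 1.61 (adjusted p = 0.00056).

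Among the genes of the ATP-driven Hsp70 system, *Hsp70Aa* was at 0.681 to 4.24 in DD (median 1.6) and 2.37 to 6.38 in LD (median 4.35; −1.41, adjusted p = 0.00016). Its partners fell as well, with −0.99 for the J protein gene *DnaJ-1* (adjusted p = 0.00018) and −1.18 for the BAG-family co-chaperone gene *stv* (adjusted p = 0.0025). *Hsp70Ba*, *Hsp70Bc* and *Hsp68* were lower by −1.0, −0.95 and −0.88 (adjusted p = 0.019, 0.033 and 0.017). The *Hsp70* genes are near-identical copies, and how reads were divided among them is uncertain. *Hsc70-4*, a chaperone gene that is on in all cells, rose by 0.42 (adjusted p = 0.046). In *Pdf*-rich wells *Hsromega* and *Hsp27* were also lower (−1.30 and −0.87, adjusted p = 0.0045 and 0.032), whereas *Hsp70Ba* and *Hsp70Bc* had differences of 0.42 and 0.20 that did not pass the test (adjusted p = 0.41 and 0.81). None of the list was called with the DD batches with spike-ins alone, where its median was −0.46, against −0.65 with those without.

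Activity-regulated genes, which neurons transcribe within minutes of firing, had 3 called members of 13, all lower in DD (23.1%, against 4.58% of all genes). *Hr38*, an orphan nuclear receptor gene used as a marker of recent neuronal activity in insects, lies on 2L at 20683462 to 20714588. It was at 0.0972 to 0.801 in DD (median 0.182) and 0.290 to 2.28 in LD (median 0.683), a 3.62-fold lower level in DD (−1.86 ± 0.35, adjusted p = 0.0021). All DD batches but one lay below the LD median, and the exception was batch 1 at 10 h. The difference was −1.52 with the DD batches with spike-ins (adjusted p = 0.34) and −2.27 with those without (adjusted p = 0.0010). *sr*, the fly member of the EGR family of zinc finger factors, was at 0.351 to 1.45 in DD (median 0.849) and 0.808 to 3.15 in LD (median 1.76; −1.14 ± 0.23, adjusted p = 0.0049). *CG14186* differed by −0.69 with an adjusted p of 0.049. *Atf3*, the most abundant member, was at medians of 1.30 in DD and 1.68 in LD (adjusted p = 0.28). The list's median was −0.31, and it was −0.45 in *Pdf*-rich wells, where 1 member was called. With the date block 2 members were called.

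The transcription loop of the clock had 3 called members of 7, all lower in DD (42.9%, against 4.58% of all genes), with a list median of −0.58. *Pdp1*, an activator that takes part in the second loop of the clock and its output, was at 19.0 to 69.7 in DD (median 40.3) and 26.0 to 108 in LD (median 66.2; −0.53 ± 0.13, adjusted p = 0.014). *cwo*, a repressor that competes with CLOCK at its binding sites, was at 1.27 to 2.37 in DD (median 1.62) and 1.01 to 5.17 in LD (median 2.77; −0.71 ± 0.17, adjusted p = 0.012). *Clk*, which encodes the activator itself, lies on 3L at 7763233 to 7775603 and was at 0.216 to 2.14 in DD (median 1.04) and 0.300 to 2.92 in LD (median 1.23). Its difference was −0.71 ± 0.21 (adjusted p = 0.044), it was lower in DD at 4 of 6 times, and leaving out 1 batch ended the call for 13 of the 28 batches (adjusted p up to 0.074). With the log2 rRNA share as a covariate, a setting chosen after seeing the data, the difference of *Clk* changed direction (0.052). The 2 groups of batches overlapped widely for all 3 genes. Without the 3 LD batches rich in glial or fat body markers none of them was called (adjusted p = 0.052 for *cwo*, 0.058 for *Pdp1* and 0.096 for *Clk*).

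The other loop genes were not called. *per* was at 0.474 to 1.52 in DD (median 0.728) and 0.532 to 17.5 in LD (median 1.04; −1.13 ± 0.42, adjusted p = 0.096). The highest LD value came from batch 1 at 14 h alone, and the next was 3.45. *vri* was at medians of 2.63 in DD and 4.28 in LD (−0.58 ± 0.23, adjusted p = 0.12), and *tim* at 6.11 in DD and 7.57 in LD (−0.16 ± 0.28, adjusted p = 0.77). No loop gene was called after scaling by library size, where the list's median was −0.34, or when every well was weighted equally, where it was −0.23.

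Of 12 kinase, phosphatase and turnover genes of the clock, 1 was called. *nmo*, whose kinase acts on the PER protein, was at 4.08 to 11.1 in DD (median 7.86) and 5.91 to 19.3 in LD (median 13.3; −0.78 ± 0.14, adjusted p = 0.0018), and all 14 DD batches lay below the LD median. The list's median of −0.04 became 0.20 after scaling by library size. *sgg*, the fly GSK-3 gene and the most abundant of the list, was at medians of 17.0 in DD and 15.2 in LD (adjusted p = 0.85). Light input genes, among them *cry* and *Rh7*, had no called member of 9. *cry*, the blue light receptor of clock neurons, was at 0.529 to 2.40 in DD (median 0.935) and 0.389 to 2.39 in LD (median 1.46; −0.21 ± 0.23, adjusted p = 0.62), with DD lower at 3 times and higher at 3. *Galphaq*, the most abundant of these genes, was at medians of 3.65 in DD and 5.0 in LD (adjusted p = 0.20).

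**Figure D3:**
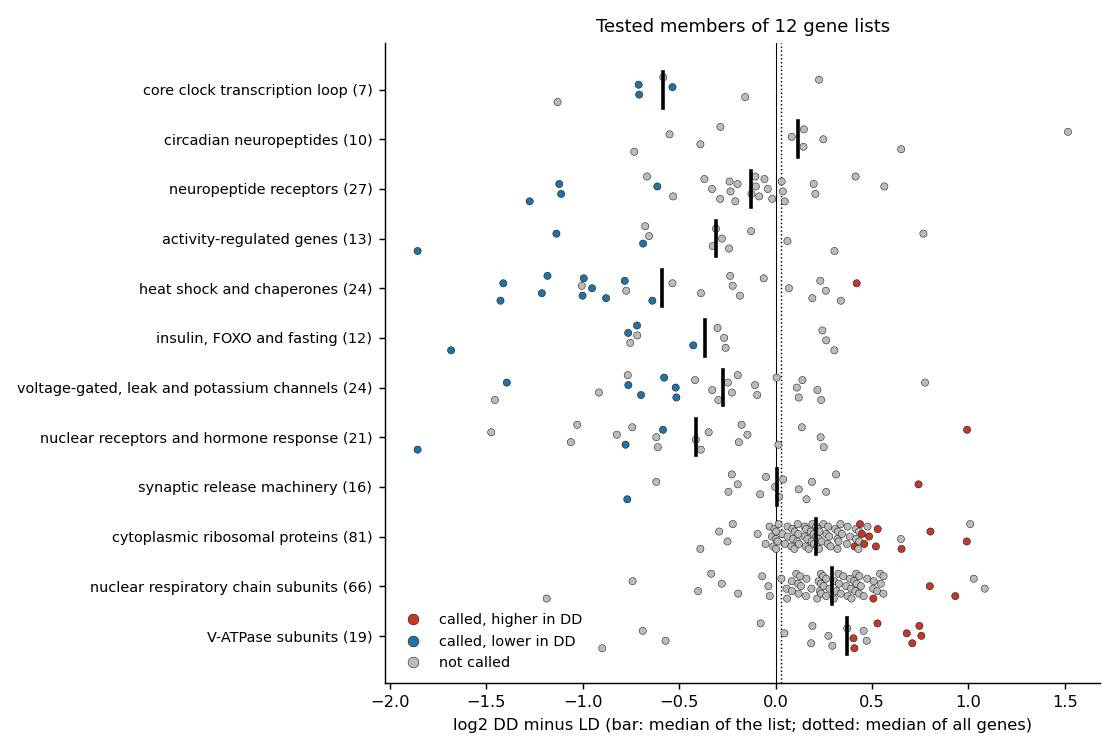
Differences of the tested members of 12 gene lists (log2 DD minus LD, horizontal axis). Each point is one gene, red where called higher in DD, blue where called lower and grey where not called. The black bar is the median of a list, the dotted line the median of all genes (0.03), and the number of tested members stands in brackets. Heat shock genes had a median of −0.59 with 10 members called lower, and V-ATPase subunits one of 0.37 with 7 called higher.

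Of 12 genes of insulin signalling and fasting, 4 fell in DD (33.3%, against 4.58% of all genes) and none rose, with a median of −0.36. *Thor*, the 4E-BP gene that FOXO switches on when insulin signalling is low and whose protein holds back translation, lies on 2L at 3478434 to 3479612. It was at 0 to 0.950 in DD (median 0.377) and 0.0893 to 3.47 in LD (median 1.27), 3.21-fold lower in DD (−1.68 ± 0.38, adjusted p = 0.0096). Above the DD range were LD batch 2 at 2 h, all LD batches at 6 and 10 h and LD batch 2 at 14 h, while those at 18 and 22 h were at 0.0893 to 0.745, within the DD range. *InR*, the insulin receptor gene and also a target of FOXO, was at 0.663 to 1.39 in DD (median 1.07) and 0.916 to 2.50 in LD (median 1.80; −0.72 ± 0.15, adjusted p = 0.0058). *REPTOR*, which drives transcription when TORC1 is low, was at 0.624 to 2.50 in DD (median 1.45) and 1.76 to 3.89 in LD (median 2.48; −0.76 ± 0.15, adjusted p = 0.0037). *Akt1*, a kinase gene of the same pathway, fell by 0.43 (adjusted p = 0.038). *Atg8a*, the autophagy gene with the highest level of the list, was at medians of 8.04 in DD and 8.30 in LD (adjusted p = 0.41).

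In glycolysis, 1 of 13 genes was called. *Hex-A*, the hexokinase gene of the first step, was at 1.91 to 3.09 in DD (median 2.42) and 2.62 to 4.37 in LD (median 3.58), 1.49-fold lower in DD (−0.57 ± 0.08, adjusted p = 0.00025). All 14 DD batches lay below the LD median. *Argk*, the arginine kinase gene that buffers ATP, was at medians of 10.1 in DD and 7.77 in LD (adjusted p = 0.58).

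Ribosomal protein genes tended the other way, with 10 of 81 called, all higher in DD (12.3%, against 3.05% of all genes), and a median of 0.21. *RpL5*, whose protein carries 5S rRNA into the large subunit, was at 7.24 to 17.2 in DD (median 10.2) and 4.41 to 8.93 in LD (median 6.70; 0.65 ± 0.12, adjusted p = 0.0018). All DD batches lay above the LD median. *RpS15Ab* and *RpS14b* rose by 0.99 and 0.80 (adjusted p = 0.039 and 0.015) and their close copies *RpS15Aa* and *RpS14a* by 0.48 and 0.53 (adjusted p = 0.016 and 0.014). How reads were split between such copies is uncertain. *sta*, *RpL3*, *RpL7*, *RpL7A* and *RpL24-like* rose by 0.41 to 0.52. Scaled by library size 31 of the 81 were called higher, with the date block 3, without the 3 LD batches rich in glial or fat body markers 3, and the list's median was 0.01 with the DD batches with spike-ins and 0.33 with those without.

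Nuclear genes of the respiratory chain had 3 of 66 members called, all higher in DD, and a median of 0.29. This share of 4.55% lies near the 3.05% of all genes. *ND-51*, a complex I subunit gene, was at 0.325 to 1.63 in DD (median 1.15) and 0.278 to 0.946 in LD (median 0.575; 0.93 ± 0.23, adjusted p = 0.016). *SdhD* of complex II and *COX5A* of complex IV rose by 0.80 and 0.51 (adjusted p = 0.018 and 0.041). *ATPsynC*, the most abundant, was at medians of 8.53 in DD and 5.63 in LD and was not called (adjusted p = 0.44). None of the 3 was called with the date block or without the 3 LD batches rich in glial or fat body markers, and the list's median was 0.06 with the DD batches with spike-ins and 0.44 with those without.

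Of 20 tested genes of the mitochondrial genome, 1 rose and 1 fell. *mt:ND1* was at 13.1 to 93.3 in DD (median 39.5) and 7.14 to 56.7 in LD (median 19.2; 1.11 ± 0.34, adjusted p = 0.047). *mt:srRNA*, the RNA of the small mitochondrial ribosomal subunit, was at 2.88 to 11.1 in DD (median 6.67) and 16.5 to 60.9 in LD (median 33.4). It was 4.81-fold lower in DD (−2.27 ± 0.20, adjusted p = 2.7e-07), the groups did not overlap, and it stood at −2.62 with the DD batches with spike-ins and −2.02 with those without. *mt:tRNA:L:CUN*, the row with the most UMIs, was at medians of 432 in DD and 339 in LD (adjusted p = 0.13). The median of these genes was −0.04 with the DD batches with spike-ins and 0.39 with those without.

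Ribosomal RNA rows, nuclear and mitochondrial together, had 9 of 15 members called, all lower in DD (60%, against 4.58% of all genes), with a median of −1.38. This list, too, was drawn up after values had been seen. The row *mt:srRNA*, described above, is 1 of these 9, and the others are nuclear. The row pre-rRNA-Psi:CR45856 was at 123 to 291 in DD (median 234) and 317 to 822 in LD (median 555; −1.39 ± 0.16, adjusted p = 1.6e-05). The row 18SrRNA-Psi:CR41602 was at 55.8 to 166 in DD (median 116) and 173 to 454 in LD (median 330; −1.59 ± 0.18, adjusted p = 6.1e-06). The rows 28SrRNA-Psi:CR41609, 28SrRNA-Psi:CR40741, 28SrRNA-Psi:CR45855, 28SrRNA-Psi:CR45860, 28SrRNA-Psi:CR45859 and 28SrRNA-Psi:CR45853 fell by 1.33 to 1.97. The nuclear rows are near-identical copies and fragments of the rDNA repeat and do not stand for separate genes. Leaving out all ribosomal RNA rows and those of the mitochondrial genome before scaling gave 201 genes higher and 548 lower.

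Of 15 tested histone genes 9 were called, all lower in DD (60%, against 4.58% of all genes), at a median of −1.74. With every well weighted equally the median was −0.34, with 9 called lower and 2 higher. The called ones are replication histone genes, whose mRNAs lack a poly(A) tail, and they were scarce. *His1:CG33861* was at 0 to 0.0637 in DD (median 0.0322) and 0.0445 to 0.237 in LD (median 0.131; −2.09 ± 0.27, adjusted p = 4.2e-05). The other called members were 7 further *His1* copies, *His1:CG31617*, *His1:CG33801*, *His1:CG33807*, *His1:CG33813*, *His1:CG33816*, *His1:CG33834* and *His1:CG33855*, and *His2A:CG33865*, with differences of −1.56 to −2.37. The *His1* copies are near-identical. The list also holds *His2Av*, *His3.3A*, *His3.3B* and *His4r*, which are used outside replication and were not called. *His3.3B*, the most abundant, was at medians of 54.0 in DD and 49.0 in LD (adjusted p = 0.24).

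**Figure D4:**
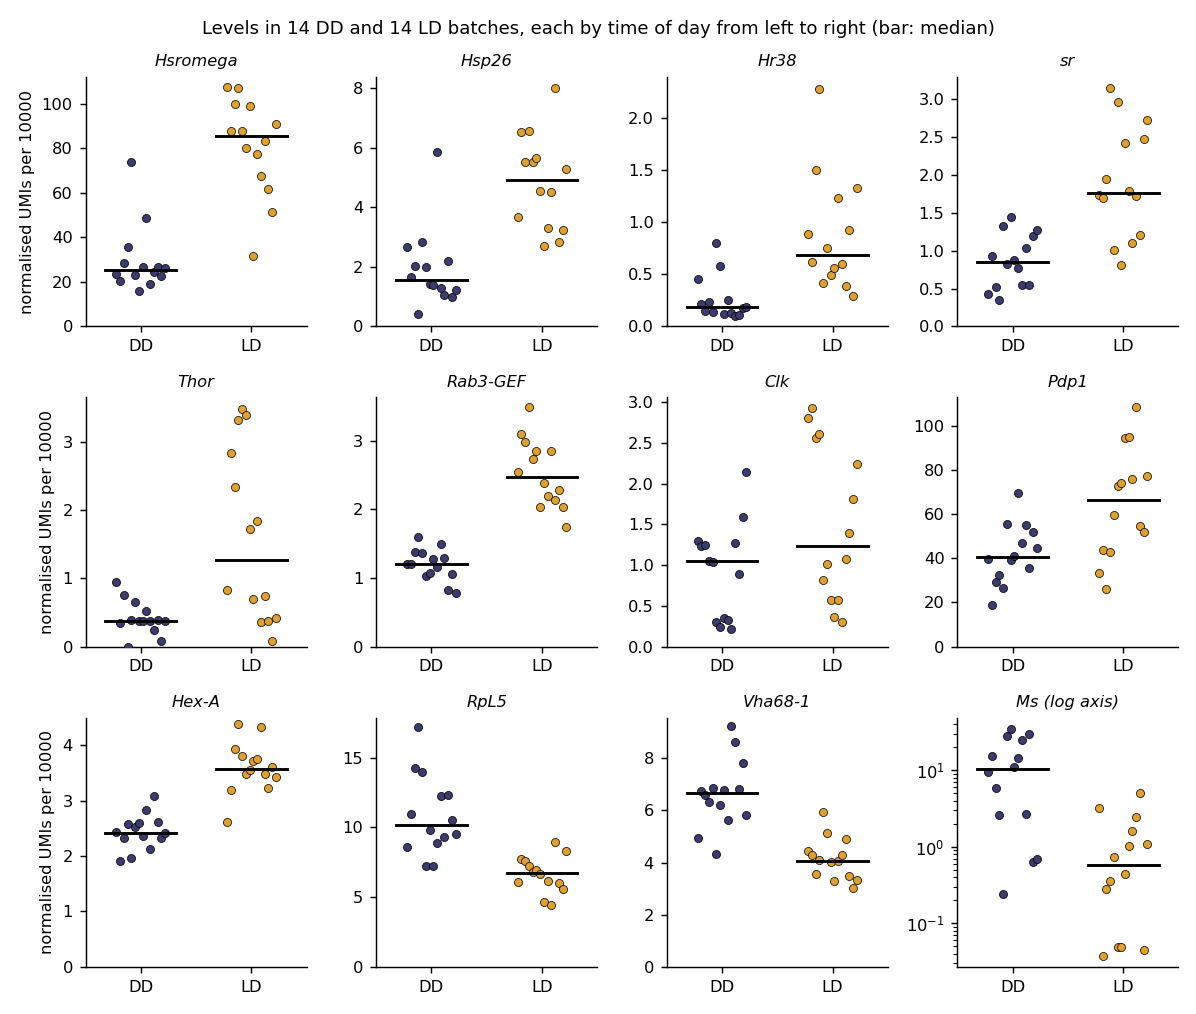
Levels of 12 genes in the 14 DD batches (left) and the 14 LD batches (right) of each panel, in normalised UMIs per 10000 (log axis for *Ms*). Each point is one batch, ordered within a group by time of day from left to right, and the bar is the median. *Rab3-GEF* had no overlap between DD (at most 1.6) and LD (at least 1.75), *Hsromega* and *Hsp26* had 3 and 2 DD batches within the LD range, and *Clk* and *Pdp1* overlapped widely.

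*Rab3-GEF* gave the clearest difference of any protein-coding gene, by adjusted p. Its protein loads the synaptic vesicle GTPase Rab3 with GTP, and the gene lies on the X chromosome at 15089682 to 15113762. It was at 0.778 to 1.6 in DD (median 1.20) and 1.75 to 3.49 in LD (median 2.47), 2.19-fold lower in DD (−1.13 ± 0.10, adjusted p = 2.7e-07). The difference was −1.12 with the DD batches with spike-ins and −1.15 with those without. It was −1.61 in *Pdf*-rich wells (adjusted p = 2.4e-05) and −1.0 in the other wells (adjusted p = 5.7e-06). *Ubr3*, an E3 ubiquitin ligase gene on the X chromosome at 7935896 to 7953883, was the second protein-coding gene without overlap, at 0.721 to 1.22 in DD (median 1.06) and 1.24 to 1.88 in LD (median 1.47; −0.52 ± 0.10, adjusted p = 0.0019). It was named after its values were seen.

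Of 16 genes of the release machinery, *unc-13* fell and *Snap24* rose, and the list's median was 0.01. *unc-13*, which primes synaptic vesicles for fusion, was at 8.75 to 17.9 in DD (median 11.4) and 10.6 to 25.6 in LD (median 22.1; −0.77 ± 0.13, adjusted p = 0.0013). *Snap24*, a SNARE gene, rose by 0.74 (adjusted p = 0.040). *cpx*, the complexin gene and the most abundant of the list, was at medians of 33.1 in DD and 32.8 in LD (adjusted p = 0.54).

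Ion channel genes had 6 of 24 tested members called, all lower in DD (25%, against 4.58% of all genes), at a median of −0.27. With the date block 3 were called, and 2 without the 3 LD batches rich in glial or fat body markers. *Shab*, a delayed rectifier potassium channel gene, was at 1.10 to 2.33 in DD (median 1.66) and 1.78 to 4.75 in LD (median 2.72; −0.76 ± 0.15, adjusted p = 0.0031). *na*, the sodium leak channel gene that depolarises clock neurons, was at 0.466 to 1.13 in DD (median 0.533) and 0.715 to 2.48 in LD (median 0.848; −0.70 ± 0.18, adjusted p = 0.022). *SK*, a calcium-activated potassium channel gene, and the calcium channel genes *Ca-alpha1T* and *Ca-alpha1D* fell by 0.51 to 0.58, and the inward rectifier gene *Irk1* by 1.39 (adjusted p = 0.042). *Sh*, the most abundant of the list, was at medians of 25.9 in DD and 23.5 in LD (adjusted p = 0.46). Of these 6 genes only *Shab* was still called after scaling by library size, where 2 members, *Sh* among them, were called higher.

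Among peptide genes that are known from clock neurons, none of the 10 tested (*Pdf*, *NPF*, *sNPF*, *ITP*, *Trissin*, *CCHa1*, *AstA*, *AstC*, *CNMa* and *Dh31*) was called. *Pdf*, the peptide that synchronises the network, was at 0.039 to 84.5 in DD (median 49.96) and 12.2 to 121 in LD (median 49.4; −0.39 ± 0.45, 95% interval −1.31 to 0.53, adjusted p = 0.64). The lowest DD value came from batch 2 at 6 h, which held 6 kept wells. *NPF* was at 0.039 to 22.2 in DD (median 5.65) and 0 to 21.3 in LD (median 0.855; 1.52 ± 1.16, 95% interval −0.87 to 3.91, adjusted p = 0.45).

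Of 20 tested genes on a list of other peptides, *Ms* rose and *amn* fell. These shares of 5% and 5% lie near the 3.05% and 4.58% of all genes. The peptide gene *natalisin*, described below, is not on that list. *Ms*, the myosuppressin gene on 3R at 24341551 to 24343825, encodes a peptide that quiets muscle of the heart and gut. It was at 0.246 to 34.7 in DD (median 10.3) and 0.038 to 5.10 in LD (median 0.586), 11.8-fold higher in DD (3.56 ± 0.93, adjusted p = 0.021). The level was 24.7 or more in both batches 1 and 2 at 10 h, in batch 2 at 14 h and in batch 2 at 18 h of DD, whereas batch 3 at 6 h and both batches at 22 h of DD were at 0.246 to 0.688, within the LD range. The call was lost without DD batch 2 at 18 h (3.39, adjusted p = 0.060), without the 3 LD batches rich in glial or fat body markers (3.45, adjusted p = 0.078) and with the date block (adjusted p = 0.057).

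The rise of *Ms* was spread over many wells, but unevenly over the batches. At least 10 transcripts per 10000 UMIs of a well (TP10K) were found in 424 of 2311 DD wells (18.3%), in 12 of 14 batches, and in 21 of 2284 LD wells (0.919%). In DD batch 1 at 10 h, 107 of 151 wells passed this level. It was 76 of 134 in batch 2 at 10 h, 77 of 216 in batch 1 at 14 h and 63 of 187 in batch 2 at 18 h. By contrast, DD batch 3 at 6 h had 0 such wells of 84 and batch 1 at 18 h had 1 of 247. Batches 1 and 2 at 22 h had 2 of 225 and 2 of 202. DD batch 2 at 6 h had 0 of only 6 wells, with a median of 3.81 TP10K and a highest well of 9.76. Wells with 10 times that level numbered 29 in DD and 4 in LD. *Pdf*-rich wells, a kind of neuron that is defined by another peptide, passed 10 TP10K of *Ms* in 36 of 187 wells in DD (19.3%) and in 1 of 221 in LD (0.452%), close to the share of the other wells, at 18.3% in DD and 0.969% in LD. The median depth of *Pdf*-rich wells was 16203 UMIs in DD and 22803 in LD.

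*natalisin*, which encodes a tachykinin-related peptide of mating behaviour, had the largest fitted difference among the genes named (7.34 ± 1.49, adjusted p = 0.0042). The rise rested on few cells. Levels were 7.37 in DD batch 2 at 2 h, 5.49 and 3.18 in DD batches 2 and 1 at 18 h and 0.146 or less in the other 11 DD batches, against 0.0188 or less in all LD batches, most of which had none. Only 5 DD wells held 10 TP10K or more, in 4 batches, and no LD well did. Weighting every well equally gave a difference of 1.19 with an adjusted p of 0.064.

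*amn*, whose product acts in memory and sleep, was at 0 to 0.410 in DD (median 0.0995) and 0.281 to 0.512 in LD (median 0.395; −1.69 ± 0.31, adjusted p = 0.0018), and 13 of 14 DD batches lay below the LD median. *dimm*, which encodes the factor that gives peptidergic cells their secretory capacity, was at 0 to 0.236 in DD (median 0.0916) and 0.0791 to 0.570 in LD (median 0.246; −1.23 ± 0.27, adjusted p = 0.0081). *Phm*, the gene of the amidating enzyme of peptide maturation, rose by 0.42 (adjusted p = 0.030). They were the only 2 called among 10 processing genes, whose median was 0.16. *7B2*, the most abundant of these, was at medians of 19.3 in DD and 16.4 in LD (adjusted p = 0.19).

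Peptide receptor genes had 4 of 27 members called, all lower in DD (14.8%, against 4.58% of all genes). *AstC-R2*, a receptor for allatostatin C, was at 0.078 to 0.848 in DD (median 0.564) and 0.552 to 3.04 in LD (median 1.07; −1.12 ± 0.26, adjusted p = 0.010). *Dh44-R2*, for a diuretic hormone, was at medians of 0.0469 in DD and 0.107 in LD (−1.28, adjusted p = 0.0096). *rk*, the bursicon receptor gene, fell by 1.11 (adjusted p = 0.020) and *SPR*, the receptor gene for sex peptide and myoinhibitory peptides, by 0.61 (adjusted p = 0.041). *Pdfr*, the receptor for PDF and the most abundant of the list, was at medians of 3.65 in DD and 5.41 in LD (−0.53 ± 0.20, adjusted p = 0.11). The list's median of −0.13 became 0.12 after scaling by library size and 0.09 with the DD batches with spike-ins, against −0.43 with those without.

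Among 13 genes of fast transmitters and monoamines, *Tbh* rose. It encodes the enzyme that makes octopamine and was at 3.66 to 30.6 in DD (median 15.1) and 4.50 to 11.8 in LD (median 8.02; 0.93 ± 0.26, adjusted p = 0.030). In 4 DD batches, the ones at 10 h numbered 1 and 2 and those at 6 h numbered 2 and 3, it lay below the LD median, and leaving out 1 batch ended the call for 10 of 28 (adjusted p up to 0.080). It was also lost with the date block (0.81, adjusted p = 0.14) and without the 3 LD batches rich in glial or fat body markers (0.94, adjusted p = 0.078). Wells with at least 100 TP10K of *Tbh* numbered 78 in DD, in 11 batches, and 6 in LD, in 4 batches, and none of them was rich in *Pdf*. *Vmat*, the vesicular monoamine transporter gene and the most abundant of the list, was at medians of 33.1 in DD and 27.2 in LD (adjusted p = 0.35).

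Subunits of the V-ATPase, the proton pump that acidifies vesicles and lysosomes, had 7 of 19 tested members called, all higher in DD (36.8%, against 3.05% of all genes), with a median of 0.37. This list was drawn up after called genes had been seen. *Vha68-1*, a catalytic subunit gene, was at 4.34 to 9.24 in DD (median 6.67) and 3.04 to 5.92 in LD (median 4.07), 1.6-fold higher in DD (0.68 ± 0.12, adjusted p = 0.0011), and all 14 DD batches lay above the LD median. *Vha100-1*, a membrane subunit gene of neurons, was at 1.68 to 5.17 in DD (median 2.95) and 0.916 to 2.53 in LD (median 1.67; 0.76 ± 0.17, adjusted p = 0.0096). *VhaM8.9* and *Vha36-1* rose by 0.71 and 0.75, *VhaPPA1-1*, *VhaAC45* and *VhaM9.7-a* by 0.40 to 0.53. *Vha16-1*, the most abundant, was at medians of 15.2 in DD and 15.6 in LD (adjusted p = 0.75). With the date block 2 of these 19 genes were called, and 3 without the 3 LD batches rich in glial or fat body markers.

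Nuclear receptor and hormone response genes had a median of −0.41, with 3 of 21 called lower (14.3%, against 4.58% of all genes). Only 1 was called higher, and this share of 4.76% lies near the 3.05% of all genes. With the date block 2 were called lower and 1 higher. Besides *Hr38*, *EcR*, the ecdysone receptor gene, was at 0.351 to 1.82 in DD (median 1.07) and 1.07 to 2.26 in LD (median 1.62; −0.58 ± 0.18, adjusted p = 0.049), and *Eip63E*, an ecdysone-induced kinase gene, fell by 0.78 (adjusted p = 0.038). *Hr96*, a receptor gene of lipid and xenobiotic response, rose by 0.99 (adjusted p = 0.023). *Hr4*, the most abundant, was at medians of 3.48 in DD and 7.48 in LD with a wide spread (adjusted p = 0.37).

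Adhesion genes of the DIP, dpr and beat families, which give neurons their surface identity, had 2 of 43 called higher and 3 lower. These shares of 4.65% and 6.98% lie near the 3.05% and 4.58% of all genes, and with the date block none was called higher and 1 lower. *dpr2*, *beat-VII* and *dpr11* fell by 0.50 to 0.77, and *dpr7* and *dpr19* rose by 0.59 and 0.57. The list's median of −0.15 became 0.09 after scaling by library size, and was 0.07 with the DD batches with spike-ins and −0.27 with those without. *DIP-alpha*, the most abundant, ranged over 1.02 to 16.7 in DD and 1.19 to 94.3 in LD (adjusted p = 0.36). Of the redox genes, 1 of 12 rose, *Trx-2* of the thioredoxin system, at 0.780 to 2.51 in DD (median 1.56) and 0.536 to 1.35 in LD (median 0.860; 0.66 ± 0.18, adjusted p = 0.022). *cnc*, the fly Nrf2 gene and the most abundant of them, was at medians of 2.36 in DD and 3.07 in LD (adjusted p = 0.65). Of 19 secretory pathway genes, *Calr*, which encodes a chaperone of the endoplasmic reticulum, rose by 0.60 (adjusted p = 0.046), and *Hsc70-3*, the most abundant, was at medians of 5.66 in DD and 5.81 in LD (adjusted p = 0.33). None of 4 tested immune genes was called, and *PGRP-LB*, the most abundant of them, was at medians of 0.023 in DD and 0.0679 in LD (adjusted p = 0.26). None of 12 genes of dosage compensation and sex determination was called either, *roX1* being the most abundant, with medians of 18.3 in DD and 26.0 in LD (−0.41 ± 0.15, adjusted p = 0.10).

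Among genes with a mean level of at least 0.5, those with the largest rise at all 6 times, after *natalisin*, were mostly little studied. *CG6220*, *CG5027*, *CG4238*, *CG5273* and *CG9368* rose by 0.85 to 1.02. *RNaseX25*, a secreted ribonuclease gene, was at 0.585 to 2.30 in DD (median 1.41) and 0.256 to 1.25 in LD (median 0.745; 0.91 ± 0.21, adjusted p = 0.0096). *spi*, which encodes the EGF receptor ligand Spitz, was at 0.741 to 1.80 in DD (median 1.34) and 0.357 to 1.15 in LD (median 0.730; 0.85 ± 0.19, adjusted p = 0.0079), and all 14 DD batches lay above the LD median. *Gadd34*, whose product restarts translation after stress, was at medians of 0.599 in DD and 0.410 in LD (0.84, adjusted p = 0.039). The smallest p-values among the genes that rose belonged to *CG9917* (0.86 ± 0.14, adjusted p = 0.00048), *Vha68-1*, the beta-tubulin gene *betaTub60D* (2.28 ± 0.40, adjusted p = 0.0011), *CG4238* (0.93 ± 0.17, adjusted p = 0.0016) and *CG5028* (0.75 ± 0.14, adjusted p = 0.0018). *betaTub60D* was scarce, at 0.0198 to 0.195 in DD (median 0.0532) and 0 to 0.022 in LD (median 0.010). Among those that fell, *S2P*, a protease gene of the SREBP pathway, was at 0.0509 to 2.93 in DD (median 1.33) and 0.858 to 19.2 in LD (median 4.37; −1.78 ± 0.45, adjusted p = 0.017), and all DD batches lay below the LD median.

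From 1 kb upwards, the difference was lower in genes that are longer on the genome. UMIs were counted on exons only, so this length includes introns that were not counted. Genes that fell had a median span of 12246 bp, genes that rose one of 2255 bp, and all 9309 genes with a known span one of 2894 bp. Of 306 genes over 50 kb, 65 fell (21.2%, against 4.58% of all genes) and 1 rose, with a median difference of −0.37. Of 2239 genes of 1 to 2 kb, 47 fell and 104 rose, with a median of 0.26. The 1115 genes under 1 kb stood below that class, with 40 that fell, 19 that rose and a median of 0.09. Across the 9309 genes, which are not independent replicates, Spearman's rho of the difference with the span was −0.24. The class over 50 kb also lay below that of 1 to 2 kb with DD batches with spike-ins (medians 0.20 and −0.21), without (0.28 and −0.50), in *Pdf*-rich wells (0.25 and −0.38), after scaling by library size (0.49 and −0.13) and with every well weighted equally (0.19 and −0.10). Of the genes described above, *Hr38*, *Pdp1*, *nmo*, *InR*, *Shab* and *unc-13* are long, while *Thor* and the heat shock protein genes are short and fell too. The exonic length of called genes moved with the span, at a median of 5121 bp for genes that fell and 1708 bp for those that rose. Whether the span, the exonic length or the level (medians 0.697 for genes that fell and 0.320 for those that rose) goes with the difference was not tested.

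**Figure D5:**
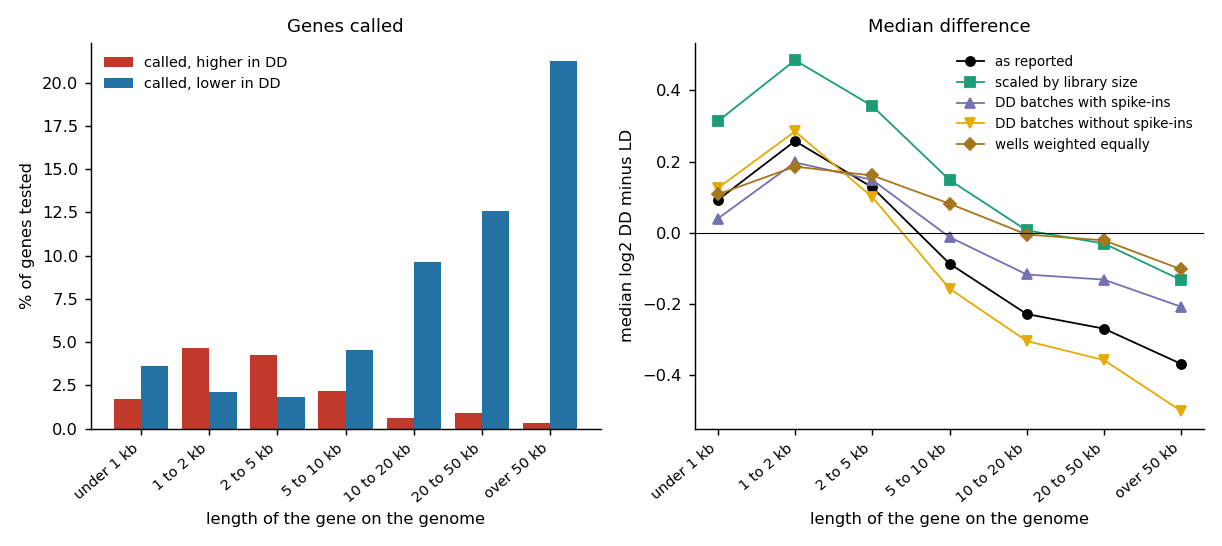
Calls and differences by the length of the gene on the genome (horizontal axis, 7 classes). On the left, the bars give the percentage of tested genes in a class that were called higher (red) and lower (blue) in DD. On the right, lines join the median log2 DD minus LD of the classes as reported and under 4 other settings. In genes over 50 kb 21.2% were called lower and the median was −0.37, in genes of 1 to 2 kb the median was 0.26, and the longest class lay below that one under each of the 5 settings. Genes under 1 kb had a median of 0.09.

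Of 569 tested lncRNA genes 36 fell (6.33%, against 4.58% of all genes) and 6 rose (1.05%, against 3.05%), with a median of −0.41, which was −0.10 with the DD batches with spike-ins and −0.71 with those without. After scaling by library size 29 fell and 20 rose, and with every well weighted equally the median was −0.01. Most of those called were scarce. *CR42862*, the most abundant of the list, was at medians of 13.6 in DD and 13.3 in LD (adjusted p = 0.76). On the X chromosome the median of 1859 genes was −0.19, and that of 90 genes on chromosome 4 was −0.19 too. In contrast, 3R, 3L, 2R and 2L had medians of 0.07 to 0.12. After scaling by library size the medians were 0.06 for X and 0.04 for chromosome 4, still below those of 3R, 3L, 2R and 2L.

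In *Pdf*-rich wells alone, a narrower set of neurons, 35 of 4638 genes rose and 109 fell (3.10% in all), over 13 DD and 13 LD batches, and *Pdf* itself was left out since it chose the wells. In the other wells 256 of 9131 genes rose and 485 fell (8.12% in all). *Hsromega*, *Rab3-GEF*, *InR*, *unc-13*, *Shab*, *nmo*, *Pdp1*, *amn*, *RpL5*, *Vha68-1* and *Ms* were called in the same direction in both sets. *cwo*, *Hsp70Aa* and *Tbh* had smaller differences in *Pdf*-rich wells (−0.20, −0.58 and 0.57) than in the others (−0.81, −1.58 and 0.96), and were called in the others only. The difference between the sets was not tested.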

How the data were processed

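Single EGFP-positive neurons were sequenced with CEL-Seq2 in 84 libraries of 94 to 96 wells. The authors aligned the reads to the *Drosophila* genome (dm6) with zUMIs and STAR, counted annotated exons only, and deposited raw UMI counts per gene and well, with no filter or normalisation. Base calling used bcl2fastq 2.20 per the submitters' processing notes. Which annotation release was counted is not given in the sources used here. DD and LD files list different rows for 150 and 243 scarce genes (at most 68 UMIs each), which were taken as 0 where not listed. Per library, DD held 191993 to 3848092 UMIs (median 961911) and LD 677725 to 4259643 (median 1506420). Counting error is thus small for the sums of abundant genes. Scarce genes, such as the *His1* copies, *betaTub60D* and many lncRNA genes, rest on few UMIs in a batch, and their counting error is larger. No gene exceeded 4096 UMIs in a well.

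Wells outside the limits, 91 spike-in rows and EGFP were left out. No doublet caller was run, and no well occurred in more than 1 library by its totals. UMIs were summed per batch and compared between DD and LD with edgeR 4.0.16 in R 4.3.3 (quasi-likelihood F test), with time of day and light as terms, TMM scaling, filterByExpr and Benjamini-Hochberg adjustment over all genes tested. Levels are TMM-normalised UMIs per 10000, and differences are log2 DD minus LD. Batch properties were compared by exact permutation of light labels within time points (432000 arrangements). Alternatives used limma 3.58.1 and DESeq2 1.42.0. The programs were tested on simulated data. Gene spans and places come from an Ensembl annotation of dm6, matched by gene ID, symbol or synonym for all but 106 of 15801 rows. Figures were drawn with matplotlib 3.10.9.

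The text names the 12 called genes with the largest difference in each direction (mean of at least 0.5 and the same direction at all 6 times), the 5 with the smallest p in each direction, called members of the lists, and *NPF*, *Pdf*, *tim*, *per*, *Clk*, *vri*, *cry*, *Hr38* and the most abundant member of each list. The comparison, lists and rules were chosen with earlier results of these data known, so no list is independent evidence. Promoter sequences were not analysed here.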

Additional observations from a re-analysis of the deposited data

How the results depend on the processing

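The comparison rests on 14 DD and 14 LD batches that share no date number, so light and date cannot be told apart, and the number of calls depended on the scaling, the test and a few batches. For higher and lower genes (286 and 430 as reported), the alternatives that moved a count by over 1.5 times were library size (1147 and 213), the DESeq2 Wald test (750 and 933), no filter on low counts (108 higher), each library as a unit (1085 and 1482), no time term (466 and 678), every well weighted equally (962 and 199, so that 82.9% of calls were higher), batches with at least 40 wells (658 lower) and *Pdf*-rich wells (35 and 109). The date numbers pair batches only within a light condition. The replicate block on the date number gave 75 and 268 (consensus correlation 0.36), of which 69 and 253 were among those reported, and voom without the block 461 higher. Alternatives chosen after seeing the data were DD batches with spike-ins (1 and 7), the log2 rRNA share as a covariate (1129 and 2443) and leaving out the thinnest DD batch, number 2 at 6 h with 6 wells (658 lower), and leaving out the 3 LD batches rich in glial or fat body markers, number 2 at 6 h, 1 at 14 h and 3 at 22 h (72 and 263).

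For genes with a difference of 2-fold or more (72 and 184 as reported), library size gave 329 higher, the DESeq2 Wald test 122 and 408, no filter 41 higher, each library as a unit 459 lower, the replicate block 28 higher, an own mean for each light and time 109 and 389, equal weights 17 and 19, *Pdf*-rich wells 19 and 49, DD batches with spike-ins 1 and 7, the rRNA covariate 784 and 2335, and leaving out the 3 LD batches rich in glial or fat body markers 34 higher. Leaving out 1 batch gave 109 to 397 higher and 318 to 658 lower genes, of which at least 104 and 305 were among those reported, and 40 to 94 and 152 to 233 at 2-fold. The number of higher genes was 109 without DD batch 2 at 14 h, 121 and 126 without DD batches 1 and 2 at 22 h, 123 without DD batch 2 at 2 h, 148 and 153 without DD batches 1 and 2 at 18 h, 180 without DD batch 1 at 6 h, and 162 to 183 without LD batch 1 at 6 h, 1 or 2 at 10 h or 1 at 14 h. Leaving out 1 date number gave 67 to 397 higher and 231 to 658 lower, and 21 to 94 and 131 to 233 at 2-fold.

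Under these settings the named genes kept direction and call in 7734 comparisons, lost the call in 1256, gained one in 70 and changed direction in 73. Of 106 named genes that were called, 61 kept the call without any 1 batch and 48 without any 1 date, while *EcR*, *Gadd34*, *Snap24*, *CG6220*, *dpr19*, *RpL7A*, *Irk1*, *CG14186*, *Phm*, *RpL24-like*, *mt:ND1*, *Calr*, *COX5A*, *Hsc70-4* and *RpL3* lost it for 14 or more of the 28 batches, with adjusted p of at most 0.155 (edgeR) for any of the 106. Direction changed with the rRNA covariate for *CG14186* (0.0032), *Clk* (0.052), *His1:CG33801* (0.30), *Pdf* (0.42), *cry* (0.48), *Galphaq* (0.17), *Hsc70-3* (0.15), *His3.3B* (−0.35), *Pxn* (0.48) and *Vha16-1* (0.36). It changed in *Pdf*-rich wells for *Hsp70Ba* (0.42), *Hsp70Bc* (0.20), *dpr11* (0.042), *cry* (0.61), *Argk* (−0.033), *cnc* (0.15), *Pxn* (0.57) and *Vha16-1* (0.016), and with library size for *tim* (0.084), *cry* (0.015), *sgg* (0.20), *cnc* (0.068), *Pxn* (0.22), *Tm1* (0.029) and *Vha16-1* (0.15). Equal weights changed it for *tim* (0.13), *cry* (0.11), *sgg* (0.21), *cnc* (0.066), *Pxn* (0.24), *Tm1* (0.063) and *Vha16-1* (0.12). DD batches with spike-ins changed it for *Argk* (−0.051), *cnc* (0.16) and *Pxn* (0.0011), those without for *Sh* (−0.018), *CR42862* (−0.044) and *Pxn* (0.023), own means for *Pxn* (0.023), and leaving out the 3 marker-rich LD batches for *sgg* (0.023), *CR42862* (−0.0018), *Gs2* (0.96) and *Pxn* (0.017). *CR42862* also changed with each library as a unit (−0.010), wells of 10000 to 30000 UMIs (−0.040) and batches with at least 40 wells or without the thinnest (−0.021), and *inaC* with the block (−0.13), voom without it (−0.0080) and batches with at least 40 wells or without the thinnest (−0.0060). With 1 batch or date left out the values were −0.16 to 0.0034 for *sgg*, −1.72 to 0.16 for *DIP-alpha*, −0.089 to 0.11 for *CR42862*, −2.44 to 0.072 for *Gs2*, −0.0060 to 0.62 for *inaC* and −0.18 to 0.073 for *Pxn*. Of the batch properties, the difference ranged over −0.447 to 0.314 percentage points for the spike-in share, −0.252 to 0.195 for muscle markers and −0.213 to 0.0809 for photoreceptor markers with 1 batch left out. The cause of these changes was not tested.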

Other observations

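Among the called lncRNA genes, chosen here after their values were seen, those with a mean of at least 0.5 normalised UMIs per 10000 in LD were *CR45054* at 0.255 in DD and 0.743 in LD (log2 −1.56 ± 0.28, adjusted p = 0.0013), *CR44029* at 0.493 and 1.11 (−1.22 ± 0.21, adjusted p = 0.0011), *CR43459* at 0.383 and 0.993 (−1.35 ± 0.29, adjusted p = 0.0070), *CR43334* at 0.263 and 0.617 (−1.12 ± 0.34, adjusted p = 0.045), *CR45102* at 0.891 and 1.47 (−0.68 ± 0.19, adjusted p = 0.032) and *CR44922* at 0.486 and 0.765 (−0.65 ± 0.18, adjusted p = 0.033), each with the mean of the DD batches before that of the LD batches (edgeR, 14 batches each). *CR44187* and *CR44188* were scarcer and differed by −2.90 and −2.95. *CG12239* was the only gene with 4000 or more UMIs in a well, near the highest count that occurs, and this was so in 3 DD wells and no LD well.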
